A study of Mus musculus with 15 samples.

Results

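Striatal projection neurons are the output cells of the striatum and fall into a direct pathway, marked by the dopamine receptor gene Drd1, and an indirect pathway, marked by Drd2 and the adenosine receptor gene Adora2a. In both pathways dopamine and adenosine act through G proteins and cyclic AMP. Ppp1r1b, Pde10a, Rgs9 and Gng7 encode parts of that signalling machinery. Foxp1 encodes a transcription factor of these neurons, and Six3os1 is a long noncoding RNA read from the strand opposite Six3. These 9 genes were taken as a list by symbol from the 27179 gene IDs counted in the series. No rule on their measured values set the list, but it was chosen with earlier results of these data known. They are described here library by library, with most room given to the libraries that carried olfactory markers and to what difference between genotypes was left there.

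The series holds 15 RNA samples of bulk brain tissue, taken from frozen hemispheres of mice aged 12 months. The transgenic mice (TG, 4 females and 3 males) were homozygous for a transgene that overexpresses human α-synuclein under the PLP promoter, which is active in the myelin-forming oligodendrocytes. The wild-type mice (WT, 4 females and 4 males) were non-transgenic animals of the C57Bl/6 background, matched for age and sex. The transgene is therefore not driven in striatal neurons by design, and its own RNA was not analysed here. The labels give every library a separate sample, and all p-values refer to the spread among those samples. Library totals ran from 15170772 to 35850998 counts. CPM here stands for read counts divided by the TMM-scaled library total and brought to a common scale.

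The label of brain hemisphere did not go with 1 set of regional markers, and 4 classes of library were formed from genes outside the list. Omp, a marker of olfactory sensory neurons, was at 42.2 to 159 CPM in 7 libraries, namely TG female 2, TG males 1 and 3, WT females 1 and 4 and WT males 1 and 2. Neurod6, a gene of cortical excitatory neurons, was at 131 to 171 CPM in TG male 4, WT female 2 and WT male 4. Hoxa5, a patterning gene of the hindbrain, was at 69.3 to 121 CPM in TG females 1 and 4, WT female 3 and WT male 3. Gabra6, a receptor subunit of cerebellar granule cells, was at 701 CPM in TG female 3 alone. TG females thus held 1 library with olfactory markers, TG males 2, WT females 2 and WT males 2. No comparison between these classes was tested, since they were defined from the same libraries.

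The sequences around the transcription start are shown for Drd1, Drd2 and Gng7, a receptor gene of each pathway and a G protein gene, because their levels moved together between the libraries with olfactory markers. They were chosen after their values were seen, and no link between these sequences and the levels was tested. Each is a RefSeq window of 300 bases on GRCm38.p6, read on the strand of the gene and ending just past the start, with capitals marking GGGCGG or its reverse complement CCGCCC (the GC box).
Drd1, chr13:54055609-54055908, minus strand: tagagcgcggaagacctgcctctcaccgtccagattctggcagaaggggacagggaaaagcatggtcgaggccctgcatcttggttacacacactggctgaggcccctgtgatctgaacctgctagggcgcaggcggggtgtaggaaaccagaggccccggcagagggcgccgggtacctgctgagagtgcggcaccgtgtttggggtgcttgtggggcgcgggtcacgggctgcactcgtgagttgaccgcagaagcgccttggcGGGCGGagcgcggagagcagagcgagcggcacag
Drd2, chr9:49340153-49340452, plus strand: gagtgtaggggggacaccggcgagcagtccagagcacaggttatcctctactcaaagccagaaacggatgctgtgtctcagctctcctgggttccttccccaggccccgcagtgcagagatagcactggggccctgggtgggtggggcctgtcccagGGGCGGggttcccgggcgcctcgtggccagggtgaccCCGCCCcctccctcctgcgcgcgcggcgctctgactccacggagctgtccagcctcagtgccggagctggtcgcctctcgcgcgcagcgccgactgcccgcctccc
Gng7, chr10:81014876-81015175, minus strand: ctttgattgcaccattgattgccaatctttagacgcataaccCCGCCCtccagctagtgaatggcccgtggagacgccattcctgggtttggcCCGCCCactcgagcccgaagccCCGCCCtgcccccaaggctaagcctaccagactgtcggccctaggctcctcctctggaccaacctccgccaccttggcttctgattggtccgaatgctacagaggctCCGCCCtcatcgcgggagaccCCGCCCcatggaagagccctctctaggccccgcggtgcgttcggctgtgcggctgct

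Windows were found for 7 of the 9 genes, 12 in all, and not for Adora2a and Ppp1r1b. The GC box stood on either strand in 10 of the 12, against 35.7% of all 32851 windows of that length. The windows shown held 23 CpG dinucleotides for Drd1, 23 for Drd2 and 20 for Gng7, against a median of 7 over all windows. The second windows of Drd1 and Gng7 held 6 each, and the 12 windows together ran from 5 to 44. TGACG or its reverse complement, the core of the cyclic AMP response element, stood in 2 of the 12 windows and in 20.8% of all. TATAAA or its reverse complement stood in 1 of the 12 and in 13.6% of all. Motifs were searched on both strands as exact letters, no motif contains another, and several windows belong to 1 gene, so these are descriptions of the windows and not of factor binding.

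Drd1 (13488; GRCm38.p6, chr13:54051183-54055658, minus strand) encodes the dopamine receptor of direct pathway neurons. Among the libraries with olfactory markers it was at 72.8 CPM in TG female 2, 21.9 in TG male 1 and 4.996 in TG male 3, against 88.8 in WT male 1, 8.47 in WT male 2, 22.1 in WT female 1 and 40.5 in WT female 4. One TG and one WT library were high, one of each was low, and the genotypes overlapped over most of the range. The cortex-marker libraries held 10.8 CPM in TG male 4, against 15.1 in WT female 2 and 35.2 in WT male 4. With hindbrain markers Drd1 was at 1.68 and 1.48 CPM in TG females 1 and 4, against 1.69 in WT female 3 and 0.942 in WT male 3, and TG female 3 with cerebellar markers had 0.478 CPM.

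Drd2 (13489; chr9:49340360-49408177, plus strand) encodes the dopamine receptor of indirect pathway neurons. It was at 13.2, 4.17 and 0.714 CPM in TG female 2, TG male 1 and TG male 3, against 14.8, 0.737, 3.38 and 5.10 CPM in WT male 1, WT male 2, WT female 1 and WT female 4. The same libraries as for Drd1 lay at each end, and the 0.714 and 0.737 CPM rest on 13 and 16 counts. Drd2 parted from Drd1 in the libraries with hindbrain markers, where it was at 10.4 and 9.08 CPM in TG females 1 and 4, against 9.53 CPM in WT female 3 and 7.16 CPM in WT male 3. The cortex-marker libraries had 0.459 CPM in TG male 4, against 0.273 and 2.84 CPM in WT female 2 and WT male 4. The 0.459 and 0.273 CPM rest on 8 and 5 counts.

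Adora2a (11540; chr10:75316877-75334792, plus strand) encodes the adenosine receptor that is found beside Drd2 in indirect pathway neurons. It was at 61.9, 19.4 and 6.70 CPM in TG female 2, TG male 1 and TG male 3, against 61.5, 6.49, 17.7 and 27.2 CPM in WT male 1, WT male 2, WT female 1 and WT female 4. Outside this class its highest level was 11.9 CPM, in WT male 4. With hindbrain markers Adora2a lay at 2.04 to 3.11 CPM, so the Drd2 level of those 4 libraries came without a matching level of Adora2a or Drd1.

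**Figure D1:**
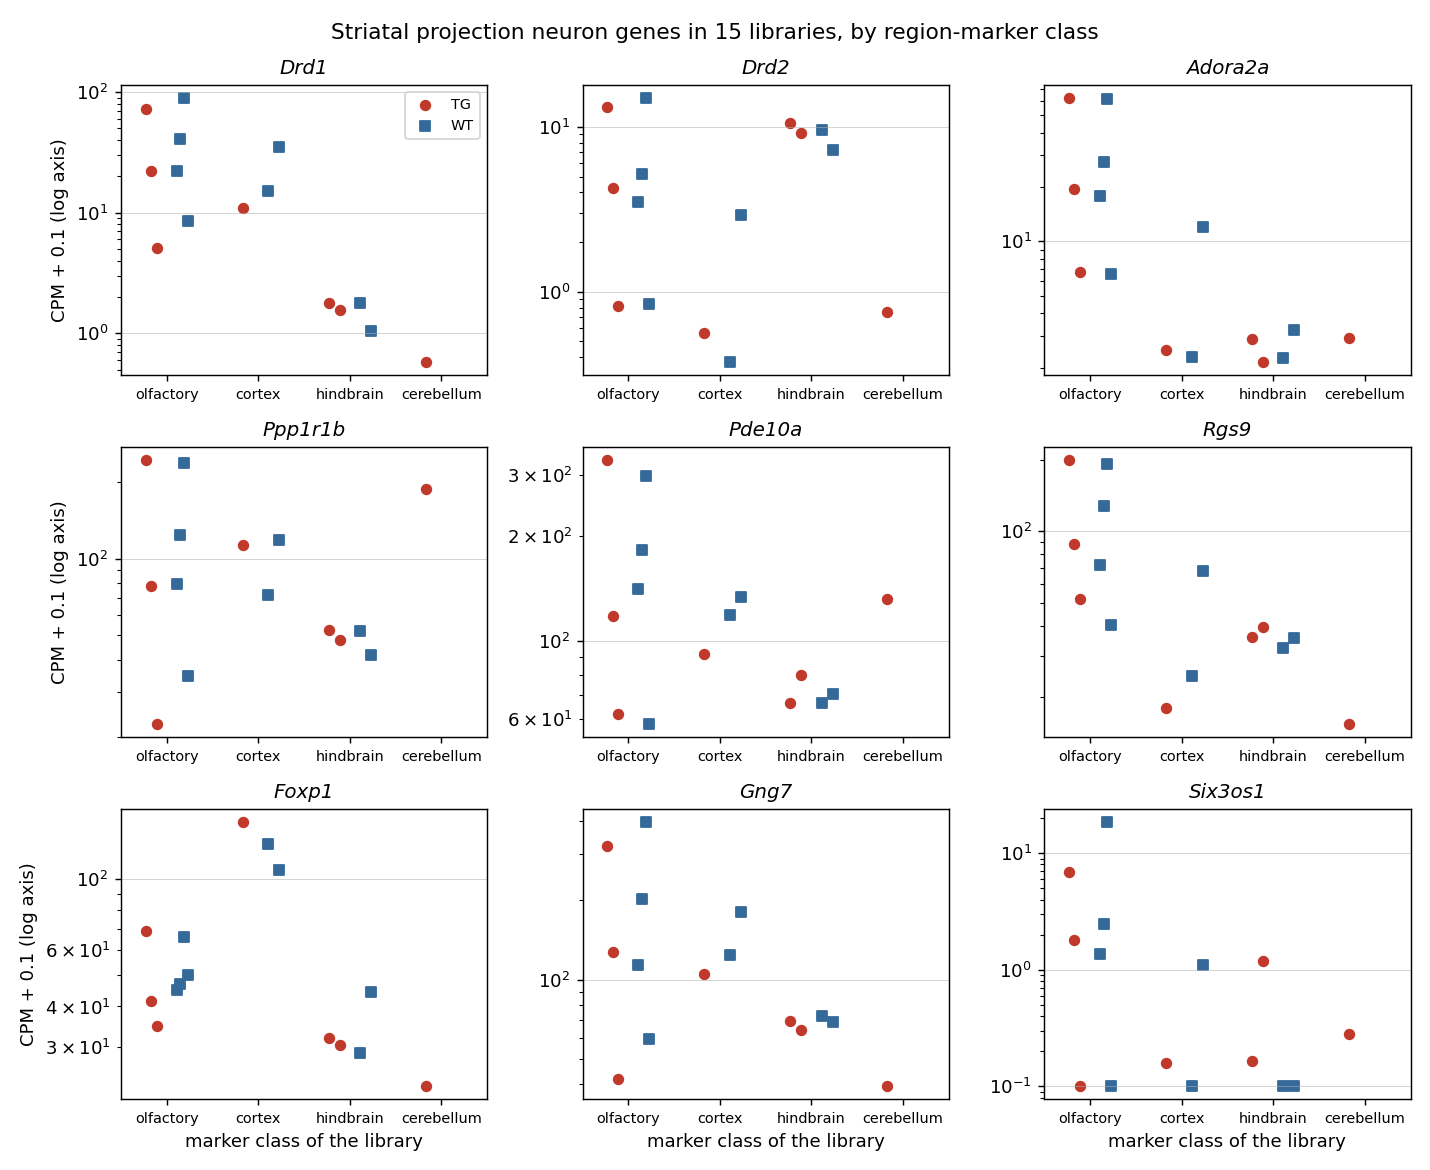
Levels of the 9 genes in the 15 libraries, as CPM plus 0.1 on a log axis with its own range in each panel, by region-marker class on the horizontal axis. Each point is 1 library, red circles TG and blue squares WT, and a library at 0 is drawn at 0.1. Drd1 and Adora2a are highest among the libraries with olfactory markers, Foxp1 in those with cortex markers, and Ppp1r1b reaches 188 CPM in the library with cerebellar markers.

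Ppp1r1b (19049; chr11:98348406-98357796, plus strand) encodes DARPP-32, the phosphatase inhibitor through which dopamine signals are integrated in both pathways. In the libraries with olfactory markers it was at 243 CPM in TG female 2, 77.7 in TG male 1 and 22.4 in TG male 3, against 237, 34.6, 79.4 and 124 CPM in WT males 1 and 2 and WT females 1 and 4. It was also at 188 CPM in TG female 3, the library with cerebellar markers. Its level there was above that of every library but TG female 2 and WT male 1, while Drd1 and Drd2 were below 1 CPM.

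Pde10a, the cyclic nucleotide phosphodiesterase enriched in striatal neurons (23984; chr17:8525187-8986648, plus strand), was at 330, 118 and 61.7 CPM in TG female 2, TG male 1 and TG male 3, against 298, 57.8, 141 and 182 CPM in WT males 1 and 2 and WT females 1 and 4. Rgs9, whose striatal form speeds the end of G protein signals (19739; chr11:109225348-109298181, minus strand), was at 199, 87.9 and 51.9 CPM in the same TG libraries, against 191, 40.2, 71.8 and 128 CPM in the same WT libraries. The counts do not tell the striatal form of Rgs9 from the retinal one. Gng7, the G protein gamma subunit that works with the olfactory-type alpha subunit in striatum (14708; chr10:80948624-81014925, minus strand), was at 322, 127 and 41.7 CPM in TG and 397, 59.6, 113 and 202 CPM in WT. All 3 genes kept the order of high and low libraries seen for the receptors. With hindbrain markers they did not fall away as Drd1 did: Pde10a lay at 66.5 to 80.0 CPM, Rgs9 at 32.1 to 39.3 CPM and Gng7 at 63.9 to 72.4 CPM. With cortex markers Pde10a lay at 91.9 to 133.5 CPM and Gng7 at 105 to 180 CPM. Rgs9 was at 17.95 CPM there in TG male 4, against 24.4 and 68.2 CPM in WT female 2 and WT male 4. In TG female 3, with cerebellar markers, Pde10a was at 132, Rgs9 at 15.3 and Gng7 at 39.2 CPM.

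Foxp1 (108655; chr6:98925342-99522746, minus strand) stood apart. It was at 68.8, 41.5 and 34.5 CPM in TG female 2, TG male 1 and TG male 3, against 66.0, 49.9, 45.1 and 47.0 CPM in WT males 1 and 2 and WT females 1 and 4. Its highest levels were in the cortex-marker libraries, at 150 CPM in TG male 4, against 129 and 107 CPM in WT female 2 and WT male 4. Foxp1 is also used by cortical projection neurons, so in bulk tissue it is no marker of striatum alone.

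Six3os1 (100043902; chr17:85601932-85618396, minus strand) was at 6.75 CPM in TG female 2, 1.70 in TG male 1 and 0 in TG male 3, against 18.4 in WT male 1, 0 in WT male 2, 1.27 in WT female 1 and 2.38 in WT female 4. A count of 0 allows up to 0.168 CPM in TG male 3 and 0.140 CPM in WT male 2, by counting error alone and on library totals without TMM scaling. Six3 overlaps it on the other strand and no source used here states whether counting used strand, so their reads cannot be told apart. Six3, a transcription factor gene of indirect pathway neurons, was at 12.5 CPM in TG female 2 and 31.2 CPM in WT male 1, and at 0.0549 CPM in TG male 3 and 0 in WT male 2. Six3os1 was also at 1.08 CPM in TG female 4 and 0.988 CPM in WT male 4.

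Per kilobase of annotated exon, the order of the median levels over the 7 libraries with olfactory markers was Gng7 (33.6 CPM per kb), Ppp1r1b (27.1), Rgs9 (13.8), Pde10a (10.9), Adora2a (6.33), Drd1 (6.09), Foxp1 (3.42), Drd2 (1.64) and Six3os1 (0.143). The ranges over the 7 libraries overlapped for every pair of neighbours in this order, down to Drd2 at 0.280 to 5.83 and Six3os1 at 0 to 1.55 CPM per kb. In the hindbrain-marker libraries Drd2 stood above Adora2a and Drd1 on this scale, with medians of 3.65, 0.807 and 0.435 CPM per kb.

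Within the libraries with olfactory markers, striatal gene levels were uneven to a degree that few other genes matched, Foxp1 apart. The SD of log2 CPM over the 7 libraries was 1.49 for Drd1, 1.47 for Drd2, 1.29 for Adora2a, 1.29 for Ppp1r1b, 0.99 for Pde10a, 0.89 for Rgs9 and 1.20 for Gng7. It was 0.35 for Foxp1 and 1.91 for Six3os1. The median SD over the 17213 genes tested in these libraries was 0.17, and 99.8% of those genes had a smaller SD than Drd1, 99.0% a smaller one than Rgs9 and 85.9% a smaller one than Foxp1. The highest library stood 17.8-fold above the lowest for Drd1, 20.8-fold for Drd2, 9.53-fold for Adora2a, 10.9-fold for Ppp1r1b and 9.53-fold for Gng7. Pde10a spanned 5.71-fold, Rgs9 4.95-fold and Foxp1 1.99-fold. For Six3os1 the ratio was at least 111-fold, with the libraries at 0 set to a limit of 3 counts per library.

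The unevenness ran across genotype. The highest library was TG female 2 or WT male 1 for all 9 genes, and the lowest was TG male 3 or WT male 2, Six3os1 being at 0 in both. The ratio of TG female 2 to WT male 1 lay between 0.367, for Six3os1, and 1.11. In bulk tissue, fewer striatal neurons in a sample and less of these RNAs per neuron cannot be told apart. The mean log2 CPM of the 9 genes was 6.35, 4.91 and 3.48 in TG female 2, TG male 1 and TG male 3, against 6.55, 3.69, 4.83 and 5.43 in WT males 1 and 2 and WT females 1 and 4. As a description over these 7 libraries, which were grouped by class markers and differ in other tissue markers, each gene's level was correlated with the mean of the other 8. Pearson's r was 0.970 to 0.996, except for Foxp1 at 0.809. Over all 15 libraries the same r was 0.943 for Gng7, 0.820 for Drd1, 0.374 for Drd2 and 0.276 for Foxp1.

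**Figure D2:**
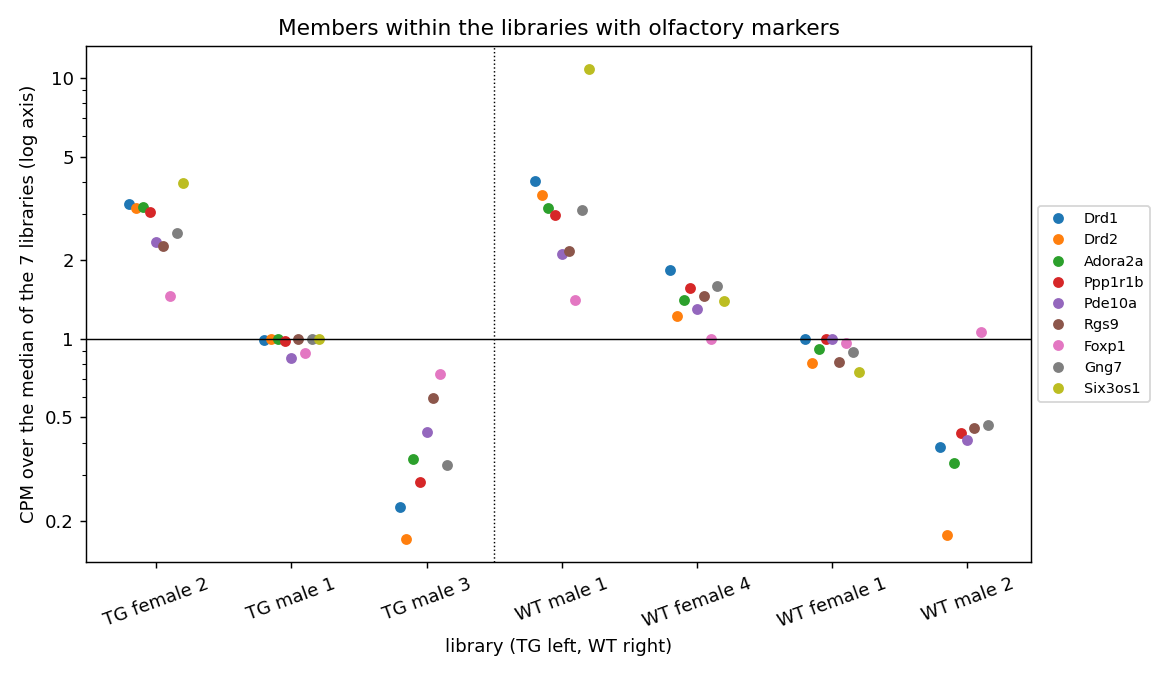
Level of each of the 9 genes in the 7 libraries with olfactory markers, as CPM over the median of those libraries on a log axis, with TG libraries to the left of the dotted line and WT libraries to the right. Drd1 is at 3.29 in TG female 2 and 4.02 in WT male 1, and at 0.226 in TG male 3 and 0.383 in WT male 2; Six3os1 at 0 in these last libraries is not drawn.

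A list of 36 other striatal genes, none of them among the 9, was set beside them. Of these, 31 had an SD above the all-gene median of 0.17, against 9 of the 9, and their median SD was 0.46, against 1.29. Tac1, the substance P precursor of direct pathway neurons, was at 58.5 CPM in TG female 2 and 4.12 CPM in TG male 3, against 67.2 CPM in WT male 1 and 7.42 CPM in WT male 2. Other genes of the list stayed level: Chrm4, a muscarinic receptor gene, ran from 79.4 to 102 CPM over the 7 libraries, and Kcnip2, a potassium channel subunit gene, from 53.6 to 64.4 CPM. Meis2 and Sp9, transcription factor genes that olfactory bulb interneurons also use, were highest in TG male 3, at 703 and 113 CPM, and lowest in WT male 1, at 351 and 43.8 CPM.

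Markers of other cells and regions moved in these libraries too. The mean log2 CPM of the olfactory bulb list lay at 6.81 to 7.31 in TG and 5.91 to 7.25 in WT libraries, lowest in WT male 1, where the 9 genes were highest. The striatal interneuron list lay at 3.19, 2.36 and 1.70 in TG female 2, TG male 1 and TG male 3, against 3.65, 2.07, 2.01 and 2.61 in WT males 1 and 2 and WT females 1 and 4. Chat, the acetylcholine-synthesising enzyme of cholinergic neurons, was at 3.91, 0.878 and 0.165 CPM in those TG libraries, against 7.33, 0.138, 0.423 and 1.66 CPM in the WT ones. Hypothalamic hormone genes stood out in WT male 1, with Oxt at 44.5, Avp at 22.2 and Pmch at 15.6 CPM, against at most 0.355, 1.20 and 0.165 CPM in the other 6. WT male 2, one of the low libraries, had the highest cortical excitatory list of the 7, at 5.71, against 4.47 to 4.56 in TG and 4.09 to 4.76 in the other WT libraries. The myelin list, made of genes of the oligodendrocytes that drive the transgene, lay at 7.82, 7.32 and 7.07 in TG female 2, TG male 1 and TG male 3, against 7.86, 6.87, 7.63 and 7.30 in WT males 1 and 2 and WT females 1 and 4, so the libraries high in the 9 genes were also highest in it. The part of these markers in the levels of the 9 genes was not tested.

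The genes whose log2 CPM was most like the mean of the 9 over all 15 libraries were Lrrc10b (r = 0.965), Six3 (0.960), Sh3rf2 (0.932), Ppp1r2 (0.932), Gpr6 (0.924), Adcy5 (0.914), Rarb (0.902), Cd4 (0.899), Mki67 (0.881) and Nmbr (0.875), among 15537 genes averaging 1 CPM or more. Lrrc10b was at 44.7 CPM in TG female 2 and 1.21 CPM in TG male 3, against 36.1 CPM in WT male 1 and 2.12 CPM in WT male 2. Over the 7 libraries with olfactory markers, the genes most like the mean included Tac1, Cd4, Epb41l1, Serpina9, Mme, Nts, Pde1b, Ccdc187 and Strip2, at r of 0.982 to 0.991. Of the first 10 genes, 5 belong to the other striatal list. These r describe libraries that differ in tissue content and carry no test.

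Between genotypes, none of the 9 genes changed in the fit of all 15 libraries with sex as a covariate. In edgeR's quasi-likelihood test 0 of 9 passed a Benjamini-Hochberg adjusted p of 0.05, against 0.111% of the 17151 genes tested. An unadjusted p under 0.05 was found for 0 of the 9, against 1.83% of all genes in that fit. The log2 fold change of TG over WT was -0.66 ± 1.10 (SE) for Drd1, -0.30 ± 0.93 for Drd2, -0.23 ± 0.99 for Adora2a and 0.11 ± 0.54 for Ppp1r1b. It was -0.14 ± 0.44 for Pde10a, -0.21 ± 0.61 for Rgs9, -0.29 ± 0.42 for Foxp1, -0.46 ± 0.54 for Gng7 and -0.58 ± 1.84 for Six3os1. The median of the 9 was -0.29, beside 0.00 over all genes. The 95% interval of Drd1 ran from -3.01 to 1.69 and that of Pde10a from -1.08 to 0.79, so changes of several-fold in Drd1 were not detectable in this design. Of the 36 other striatal genes, 0 rose and 0 fell, with a median of -0.18, and the smallest p belonged to Crym (-1.23 ± 1.07) and Itpr1 (0.89 ± 0.81). Itpr1 was at 1574 CPM in TG female 3, the library with cerebellar markers, against at most 453 CPM in the others. With a term for library class, Itpr1 was at -0.05 ± 0.14 and Crym at -0.66 ± 0.57.

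With the library class added as a term, the SE of the 9 genes other than Foxp1 lay at 0.385 to 1.48, against 0.436 to 1.84 without it. Here 0 of 9 were called, against 0.496% of genes, and Drd1 was at -0.47 ± 0.68, Drd2 at -0.13 ± 0.73 and Gng7 at -0.30 ± 0.48. Foxp1, which followed the cortex-marker libraries, was the one of the 9 whose SE narrowed most in proportion, to 0.17 in this fit, against 0.42 without the term. The median of the 9 was -0.17, and 0 of the 9 were above 0.

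Striatal content was then added as a further covariate, namely the mean log2 CPM of the 36 other striatal genes in each library. This mean is not a measure of striatum alone, since genes such as Sp9 and Meis2 ran against the 9 genes with olfactory markers. Its Pearson's r with the 9 genes ran from 0.374 for Ppp1r1b to 0.918 for Rgs9 over all 15 libraries. With olfactory markers it ran from 0.849 for Foxp1 to 0.995 for Gng7. The SE of the 9 genes was 1.20 to 6.75 times smaller than with the class term alone, smallest in proportion for Foxp1 and largest for Drd1. With both terms 0 of 9 were called, against 0.636% of genes. Drd1 was at -0.31 ± 0.10, with an unadjusted p of 0.00846 and an adjusted p of 0.282 in edgeR's test, and Gng7 at -0.24 ± 0.09, with 0.017 and 0.367. These 2 of 9 genes had an unadjusted p under 0.05, as did 10.1% of all genes in that fit. The others were Drd2 at -0.13 ± 0.23, Adora2a at -0.15 ± 0.22, Ppp1r1b at 0.01 ± 0.14, Pde10a at -0.07 ± 0.12, Rgs9 at -0.07 ± 0.18, Foxp1 at -0.05 ± 0.14 and Six3os1 at 0.08 ± 0.73. The 95% intervals narrowed to -0.53 to -0.10 for Drd1, -0.62 to 0.37 for Drd2, -0.30 to 0.32 for Ppp1r1b and -0.33 to 0.18 for Pde10a. A genotype difference that the 9 genes share with the 36 would go into the content term. These intervals therefore concern a change relative to the other striatal genes, not the whole change of a gene. With each library left out in turn from this fit, an alternative added after the data were seen, Drd1 lay at -0.39 to -0.24 and Gng7 at -0.28 to -0.19, and the adjusted p of Drd1 ran from 0.194 to 0.694.

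**Figure D3:**
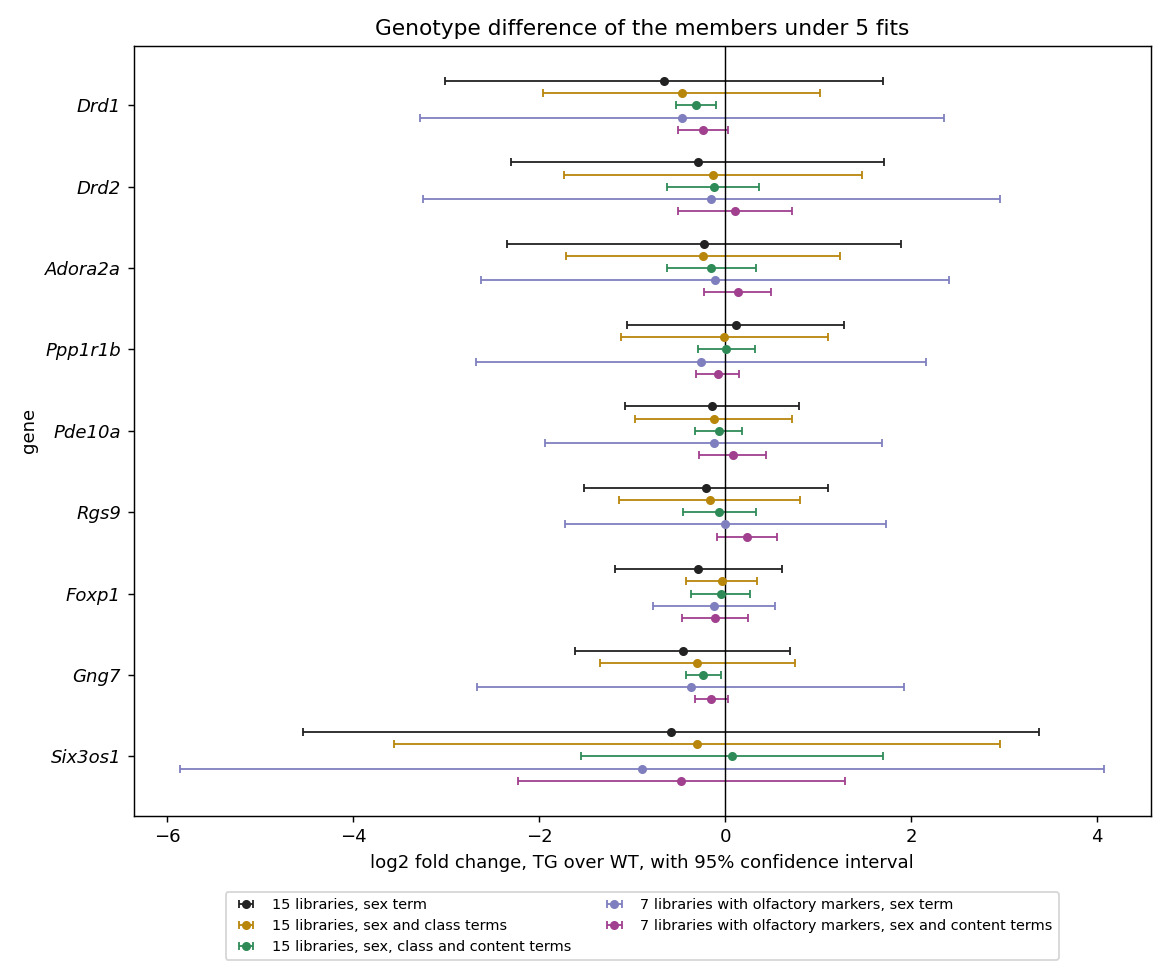
Log2 fold change of TG over WT with its 95% confidence interval for each of the 9 genes under 5 fits, 3 of all 15 libraries and 2 of the 7 libraries with olfactory markers. Intervals without the content term span up to several log2 units, as for Drd1 from -3.01 to 1.69, and shrink with it, to -0.53 to -0.10 for Drd1. Fits with that term read each gene relative to the other striatal genes.

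Among the 7 libraries with olfactory markers, 3 TG against 4 WT, 0 of 9 genes were called, against 0.267% of the 17213 genes tested there. Drd1 averaged 33.2 ± 35.3 CPM in TG and 40.0 ± 35.1 CPM in WT libraries (SD), and Drd2 6.02 ± 6.44 and 6.02 ± 6.16 CPM. Drd1 was at -0.47 ± 1.13, Drd2 at -0.15 ± 1.24, Adora2a at -0.11 ± 1.01, Ppp1r1b at -0.26 ± 0.97 and Gng7 at -0.37 ± 0.92 on the log2 scale. Pde10a was at -0.13 ± 0.72, Foxp1 at -0.12 ± 0.27 and Six3os1 at -0.90 ± 1.99, and Rgs9 was at 0.00 ± 0.69. The direction rested on single libraries. Without WT male 1, all 9 genes were above 0 with a median of 0.91, led by Six3os1 at 2.20 and Drd2 at 1.66. Without TG female 2, 0 of the 9 were above 0 and the median was -1.46, with Drd1 at -1.87. Without TG male 3, all 9 were again above 0, with a median of 0.30. None of the 9 was called in these 3 fits, where the lowest adjusted p in edgeR's test was 0.777, 0.128 and 1.00.

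With the content term in the same 7 libraries, 0 of 9 were called, against 0.825% of genes, and the SE was 1.83 to 11.6 times smaller than without it. Drd1 was at -0.24 ± 0.12 (adjusted p in edgeR's test 0.425), Gng7 at -0.15 ± 0.08 (0.46), Rgs9 at 0.23 ± 0.14 (0.524) and Adora2a at 0.13 ± 0.15 (0.757). Drd2 was at 0.10 ± 0.27, Ppp1r1b at -0.08 ± 0.10, Pde10a at 0.08 ± 0.15, Foxp1 at -0.11 ± 0.15 and Six3os1 at -0.47 ± 0.67. Foxp1 alone was called in 1 of the 7 fits that left out a library, with a log2 fold change of -0.46 and an adjusted p of 0.0309 from edgeR without TG female 2, the only TG female of the class. That fit called 3.45% of its 16559 genes, 571 in all, against 142 genes with all 7 libraries. The adjusted p of Foxp1 ran up to 0.984 in the other fits. The 36 other striatal genes make up the content term, so their own differences in this fit are not read, and those of the 9 genes are relative to them.

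The ratio of the receptor genes within a library does not move with striatal content in so far as both genes come from striatal neurons, and it was compared directly. Over all 15 libraries, log2 CPM of Drd1 minus Drd2, with a pseudocount of 0.5 CPM, averaged 0.80 ± 2.40 in TG and 1.75 ± 2.56 in WT libraries (SD, n = 7 and 8), a difference of -0.95 with a two-sided exact permutation p of 0.461 (0.608 adjusted over 3 ratios). Drd1 minus Adora2a averaged -0.11 ± 1.12 in TG and 0.53 ± 1.15 in WT libraries (exact permutation p = 0.301, adjusted 0.608). Adora2a minus Drd2 averaged 0.90 ± 1.90 in TG and 1.22 ± 1.71 in WT libraries (exact permutation p = 0.608, adjusted 0.608). These spreads held the marker classes, since Drd1 minus Drd2 lay at 2.18 to 2.87 with olfactory markers, 3.42 to 4.33 with cortex markers and -2.41 to -2.19 with hindbrain markers. With cortex markers, Drd2 rests on 5 counts in WT female 2 and 8 in TG male 4. Drd1 minus Drd2 was 4.33 and 3.56 in these libraries, and 5.35 and 4.28 at a pseudocount of 0.1 CPM.

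Among the libraries with olfactory markers the ratios were tight while the levels were not. Drd1 minus Drd2 was 2.42 in TG female 2, 2.26 in TG male 1 and 2.18 in TG male 3, against 2.54 in WT male 1, 2.86 in WT male 2, 2.54 in WT female 1 and 2.87 in WT female 4. Every TG value lay below every WT value, with means of 2.287 ± 0.123 in TG and 2.704 ± 0.187 in WT (SD, n = 3 and 4), and the exact permutation p of 0.0571 is the smallest that 3 against 4 can give (0.0857 adjusted). The separation ended with a pseudocount of 0.1 CPM, where TG male 3 was at 2.65 and WT male 1 at 2.57 (exact permutation p = 0.114). The separation ended at 2 CPM too, with means of 1.87 ± 0.47 in TG and 2.28 ± 0.29 in WT (exact permutation p = 0.286). These pseudocounts were chosen after the data were seen, and the Drd2 value of TG male 3 rests on 13 counts. Drd1 minus Adora2a was 0.23, 0.17 and -0.39 in TG female 2, TG male 1 and TG male 3, against 0.53, 0.36, 0.31 and 0.56 in WT males 1 and 2 and WT females 1 and 4. These values did not overlap either, with a difference of -0.43 and the same smallest exact permutation p of 0.0571 (0.0857 adjusted). They kept apart at pseudocounts of 0.1 and 2 CPM, with differences of -0.45 and -0.39. The exact permutation p was again 0.0571 at each, and 0.171 after adjustment. Adora2a minus Drd2 averaged 2.28 ± 0.25 in TG and 2.26 ± 0.20 in WT (exact permutation p = 0.914). No ratio passed the threshold of 0.05 after adjustment.

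**Figure D4:**
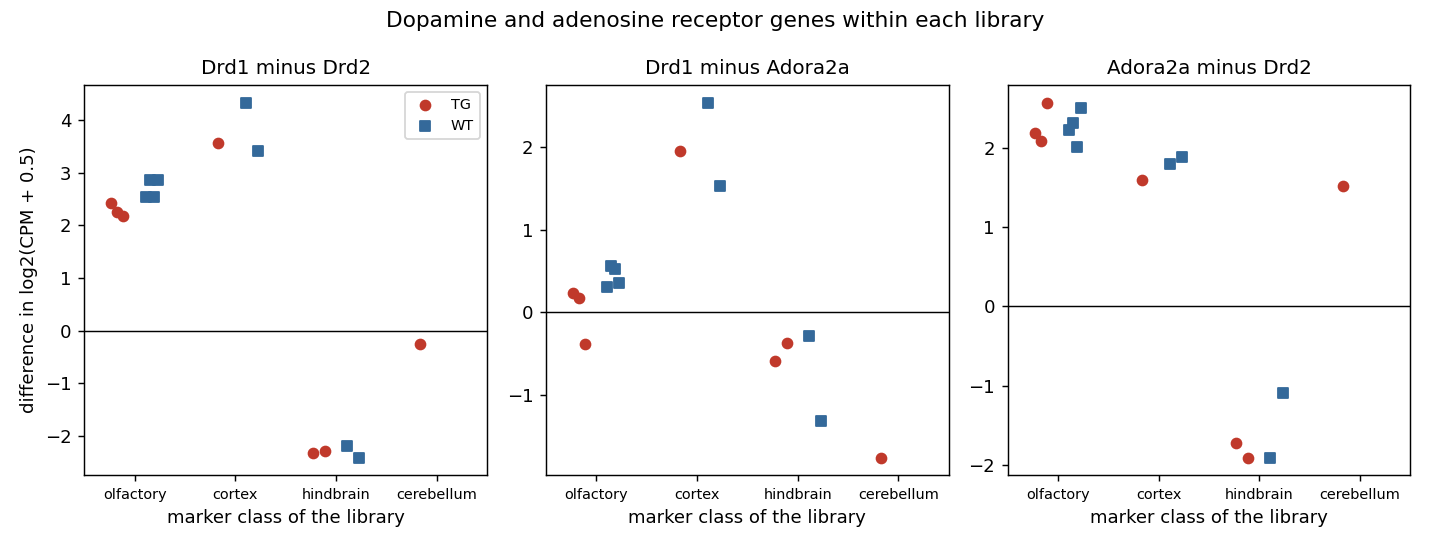
Differences in log2(CPM + 0.5) between 2 receptor genes within each library, by region-marker class, with 1 point per library, red circles TG left of blue squares WT. With olfactory markers, Drd1 minus Drd2 lies at 2.18 to 2.42 in TG and 2.54 to 2.87 in WT libraries, and with hindbrain markers it is below 0 in both genotypes.

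Sex and its interaction with genotype gave no call among the 9 genes. For female against male, 0 of 9 passed in edgeR's test, against 0.0408% of genes, with Drd1 at -0.14 ± 1.09, Drd2 at 0.69 ± 0.94 and Foxp1 at -0.51 ± 0.42. For the difference of the genotype effect, females minus males, 0 of 9 passed, against 0% of genes. An unadjusted p under 0.05 was found for 0 of the 9, against 4.07% of all genes in that fit. DESeq2 called 5 genes and none of the 9. Drd2 was at 2.69 ± 1.62, Adora2a at 1.63 ± 1.92 and Drd1 at 1.36 ± 2.16, and 8 of the 9 were above 0. With the class term all 9 were above 0, and Drd1 (2.74 ± 1.11), Adora2a (2.84 ± 1.05), Rgs9 (1.85 ± 0.72) and Six3os1 (6.08 ± 2.41) had an unadjusted p under 0.05, as did 12.5% of all genes in that fit. Their adjusted p in edgeR's test was 0.348 to 0.371, and among libraries with olfactory markers the genotype comparison in females rests on 1 TG library, TG female 2. Without TG female 2, the interaction's median over the 9 in the fit with no class term was -0.20, against 1.30 with all libraries, and without WT male 1 it was 0.19.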

How the data were processed

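The authors deposited whole-number counts of reads per gene for 15 libraries. The submitters' processing notes name STAR 2.7.5b as aligner, the GRCm38 build, and Subread's featureCounts as counter; the strand setting is not given in the sources used here. Per the labels' protocols, libraries came from a stranded total RNA kit with ribosomal RNA removal.

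Gene IDs were matched to RefSeq symbols on GRCm38.p6 for 25275 of 27179 IDs and through GENCODE for 18; the 1886 without a symbol held 0.836% of counts. The 2 most alike libraries still differed by more than sampling noise (chi-square per gene 5.11). Tests on the deposited counts used edgeR 4.0.16 under R 4.3.3 (filterByExpr, TMM, robust quasi-likelihood F test, Benjamini-Hochberg adjustment at 0.05). CPM uses TMM-scaled totals, with a pseudocount of 0.5 CPM for log2 means. Library classes needed, in this order, Gabra6 of 100, Hoxa5 of 20, Omp of 20 or Neurod6 of 100 CPM. The genes, lists, classes and tests were chosen with earlier results of these data known. All 9 genes were named, with list genes that passed or else the 2 with the smallest p, and the 10 genes most like the mean, of which 1 result is not reported here; other list genes (Tac1, Chrm4, Kcnip2, Meis2, Sp9) and markers (Chat, Oxt, Avp, Pmch) were chosen after their values were seen. Ratios were tested with exact permutation in scipy 1.17.1. DESeq2 1.42.0, limma-voom (limma 3.58.1), other scalings, no filter, other terms, other pseudocounts and leaving out each library were alternatives. The fit was tested on simulated counts drawn gene by gene without marker classes, a setting that differs from these libraries. The content term is itself measured, and its error is not carried into the standard errors. Limits for counts of 0 cover counting error only; 95% intervals of fold changes come from the fit.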

Additional observations from a re-analysis of the deposited data

Results flagged for a closer look

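Within the groups of 4 libraries, 1 library stood far from the other 3 for several of the 9 genes. Among TG females, TG female 2 was highest with a gap to the next library that took up 0.983 of the group's range for Drd1, 0.987 for Adora2a, 0.869 for Rgs9, 0.892 for Gng7 and 0.848 for Six3os1. Among WT males, WT male 1 was highest with a gap of 0.85 of the range for Adora2a and 0.946 for Six3os1. These 7 of 27 combinations of gene and group passed Dixon's 95% criterion, where chance flags about 1 in 20 groups, and they are not independent because the genes move together. TG female 2 is the only TG female with olfactory markers, the other 3 having hindbrain or cerebellar markers, and WT male 1 has hypothalamic markers besides.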

How the results depend on the processing

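None of the 9 genes was called for genotype, sex or their interaction in the other scalings, filters, tools and model terms tried, nor with any library left out; the exception, in a fit added after the data were seen, is Foxp1 (-0.463 in the content fit without TG female 2, which called 571 of 16559 genes; leaving out 1 library, that fit called 18 to 571). The number of all genes called moved more. For genotype in 15 libraries it was 19, and 40 with DESeq2, 85 with the class term, 109 with class and content terms, 7 without the hindbrain-marker and cerebellum-marker libraries, and 16 with the replicate block, where the numbers only name the samples (correlations of same-numbered libraries ran from -0.558 to 0.592). With olfactory markers it was 46, and 115 with DESeq2, 142 with the content term, 23 with no sex term and 1 (without WT female 4) to 73 (without WT male 1) with 1 library left out. The interaction had 0 calls and 5 with DESeq2, and sex 7 calls and 12 with the class term. In 15 libraries, log2 fold changes changed sign for Drd2 with no sex term (0.009), for Ppp1r1b with limma-voom (-0.016), the class term (-0.012) and without the hindbrain-marker and cerebellum-marker libraries (-0.005), for Six3os1 with limma-voom (1.224) and class and content terms (0.075), and with the content term alone for Adora2a (0.238), Pde10a (0.118), Rgs9 (0.076) and Six3os1 (0.812). With olfactory markers they did so with limma-voom for Drd2 (0.679), Adora2a (0.388), Pde10a (0.027) and Six3os1 (1.184), with the content term for Drd2 (0.103), Adora2a (0.132) and Pde10a (0.078), with no sex term for Drd2 (0.012) and Adora2a (0.055), and with DESeq2 for Rgs9 (-0.006). The cause of these shifts was not tested. With 1 library left out of 15, the ranges that crossed 0 were -0.655 to 0.087 for Drd2, -1.667 to 0.464 for Adora2a, -0.177 to 0.457 for Ppp1r1b, -0.540 to 0.172 for Pde10a, -0.875 to 0.159 for Rgs9, -0.745 to 0.055 for Foxp1 and -2.028 to 1.083 for Six3os1. Of 7 with olfactory markers they were -1.872 to 0.983 for Drd1, -1.676 to 1.659 for Drd2, -1.399 to 1.269 for Adora2a, -1.465 to 0.909 for Ppp1r1b, -1.008 to 0.838 for Pde10a, -0.748 to 0.897 for Rgs9, -0.631 to 0.095 for Foxp1, -1.463 to 0.771 for Gng7 and -3.430 to 2.200 for Six3os1. With class and content terms they were -0.275 to 0.005 for Drd2, -0.186 to 0.077 for Ppp1r1b, -0.144 to 0.036 for Pde10a, -0.226 to 0.119 for Rgs9, -0.168 to 0.060 for Foxp1 and -0.473 to 1.543 for Six3os1. With the content term and olfactory markers they were -0.116 to 0.541 for Drd2, -0.147 to 0.011 for Ppp1r1b, -0.046 to 0.378 for Pde10a, -0.463 to 0.034 for Foxp1 and -1.344 to 0.683 for Six3os1. Adora2a minus Drd2 was 0.0182 with olfactory markers only, 0.0479 there at a pseudocount of 0.1 CPM, and -0.762 to 0.154 with 1 library left out, against -0.316. The range of the 9 genes' mean over the libraries with olfactory markers was 3.08 log2 units, 3.10 with DESeq2 size factors and 3.42 with a pseudocount of 0.1 CPM. Depth limits Drd2 and Six3os1 most. With olfactory markers they had 13 to 16 and 0 counts in the lowest libraries. Drd2 had 5 counts in WT female 2 and 8 in TG male 4, both with cortex markers, and 11 in TG female 3.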
